A study of Mus musculus with 6 samples.

Results

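Genes that handle iron and haem were described in macrophages sorted from mouse tumours. The 9 genes were chosen by name as rows of the deposited table of 21760 gene symbols: Hmox1 and Blvrb for haem breakdown, Slc40a1 for iron export, Fth1, Ftl1 and Ncoa4 for storage, and Tfrc, Slc11a1 and Lcn2 for uptake and transport of iron. All 9 were found. The macrophages came from tumours of MC38, a mouse colon carcinoma line, that had grown under the skin of C57BL6 mice for 16 days. The tumour cells were Xkr8 KO clone 1, Xkr8 KO clone 2 or wild type (WT), and the host mice were not described as altered. Xkr8 is a scramblase that brings phosphatidylserine to the surface of dying cells. Each group had 2 libraries of total RNA depleted of ribosomal RNA, each named for a mouse of its own, with no treatment. Each KO group is 1 clone of the tumour line, so a trait of that clone cannot be told apart from the loss of Xkr8. The question of the comparison is how macrophages differ in a tumour whose cells are blocked in this exposure.

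Macrophages that take up dying cells also take up the haem and iron those cells hold. Haem is cut by haem oxygenase into biliverdin, carbon monoxide and free iron, and the iron is then stored in ferritin, used, or exported through ferroportin. Most control of ferritin and of the transferrin receptor runs through iron regulatory proteins, which bind hairpins called iron-responsive elements in the RNA when iron is scarce. Bound near the start of a message they block its translation, and bound in the tail of Tfrc RNA they keep it from decay. So a change in iron can move Tfrc RNA, while ferritin protein can change with no change in its RNA. Haem and oxidative stress act at the level of transcription, through the repressor BACH1 and the activator NRF2, on Hmox1, the ferritin genes and Slc40a1.

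The hairpins of the members are shown because hairpins of this kind are what iron regulatory proteins bind. They were searched on the sense strand of GENCODE M21 transcripts (GRCm38) as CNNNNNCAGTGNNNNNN, with the 5 bases on either side of the 6-base loop able to pair, G with U included. The pattern was found in transcripts of 294 of 21877 protein-coding genes (1.34%) and in 4 of the 9 members. Each line gives 30 bases, 5′ to 3′, in DNA letters as in the transcript file, with the loop in capitals. The first 3 elements lie in 5′ UTRs and the 4 matches in Tfrc in its 3′ UTR. An element that departs from the pattern would be missed, so the count for a gene may be too low.
Fth1, chr19:9982732-9982761, plus strand: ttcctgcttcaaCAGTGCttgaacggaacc
Ftl1, chr7:45459778-45459807, minus strand: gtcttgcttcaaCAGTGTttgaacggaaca
Slc40a1, chr1:45925464-45925493, minus strand: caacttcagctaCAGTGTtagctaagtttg
Tfrc element 1, chr16:32631219-32631248, plus strand: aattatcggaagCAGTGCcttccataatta
Tfrc element 2, chr16:32631598-32631627, plus strand: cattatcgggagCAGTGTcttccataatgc
Tfrc element 3, chr16:32631663-32631692, plus strand: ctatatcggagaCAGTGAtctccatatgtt
Tfrc element 4, chr16:32631710-32631739, plus strand: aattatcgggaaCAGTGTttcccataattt
A match is a description of the sequence and was not tested for binding.

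Library totals were 37090034 to 40022755 estimated reads in 5 libraries and 20038047 in WT mouse 2. That library stood apart. Rn45s, the precursor of ribosomal RNA, made up 24.6% of its reads and 1.46% to 7.12% of those in other libraries, and it held the highest or the lowest level of most genes tested (35.1% and 39% of 15560). Levels are in CPM, reads of each gene scaled to library size with TMM factors. Xkr8 was at 4.14 to 6.97 CPM in the KO groups and 6.89 and 6.05 CPM in WT, which does not check the labels, since the knockout is in the tumour cells. The 9 macrophage markers, Adgre1 and Csf1r among them, were detected in every library, with a sum between 7372 and 8601 CPM in KO libraries, against 7079 and 9952 CPM in WT. Summed markers of some other cells differed with genotype. The 8 monocyte markers had a sum between 972 and 1248 CPM in KO libraries, against 727 and 329 CPM in WT. Vcan and F13a1 overlapped between genotypes, with Vcan at 196 to 250 CPM in KO libraries, against 287 and 150 CPM in WT. The others on that list were higher in every KO library. For Ccr2 the margin was small, with 280 CPM in clone 1 mouse 1 and 277 CPM in WT mouse 1. The 10 T and NK cell markers had a sum between 98.6 and 173 CPM in KO libraries, against 21.4 and 30.5 CPM in WT. The 7 fibroblast markers had a sum between 2390.1 and 3929 CPM in KO libraries, against 4126 and 11977 CPM in WT. That difference was Col3a1's, at 1836 to 3214 CPM in KO libraries, against 3633 and 11317 CPM in WT, while Dcn went the other way, at 286 to 470 CPM in KO libraries, against 254 and 127 CPM in WT. None of the monocyte or fibroblast markers was at 0 in any library. The part of these cells in the results was not tested. In bulk RNA, fewer cells of a type and less RNA per cell cannot be told apart.

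In level per kilobase of exon the ferritins led. Ftl1, the ferritin light chain, averaged 2626 CPM per kilobase over the 6 libraries, and Fth1, the heavy chain with the ferroxidase site, averaged 1182. Their ranges over libraries did not overlap. Hmox1 followed at 155 and Slc11a1 at 105 CPM per kilobase, with overlapping ranges. Blvrb (38.7), Ncoa4 (28.7) and Tfrc (16.8) came next, and each overlapped its neighbour in this order. Slc40a1 stood at 0.807 CPM per kilobase. The exon lengths are from GENCODE M21, and the authors' transcript set is not given in the sources used here. Ferritin genes have near-copies in the mouse genome, and the division of shared reads is not stated, so both ferritin levels are uncertain. A search for ferritin copies by the start of the symbol found Fthl17c alone, with 1 read in all. Copies under other symbols were not looked for.

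**Figure D1:**
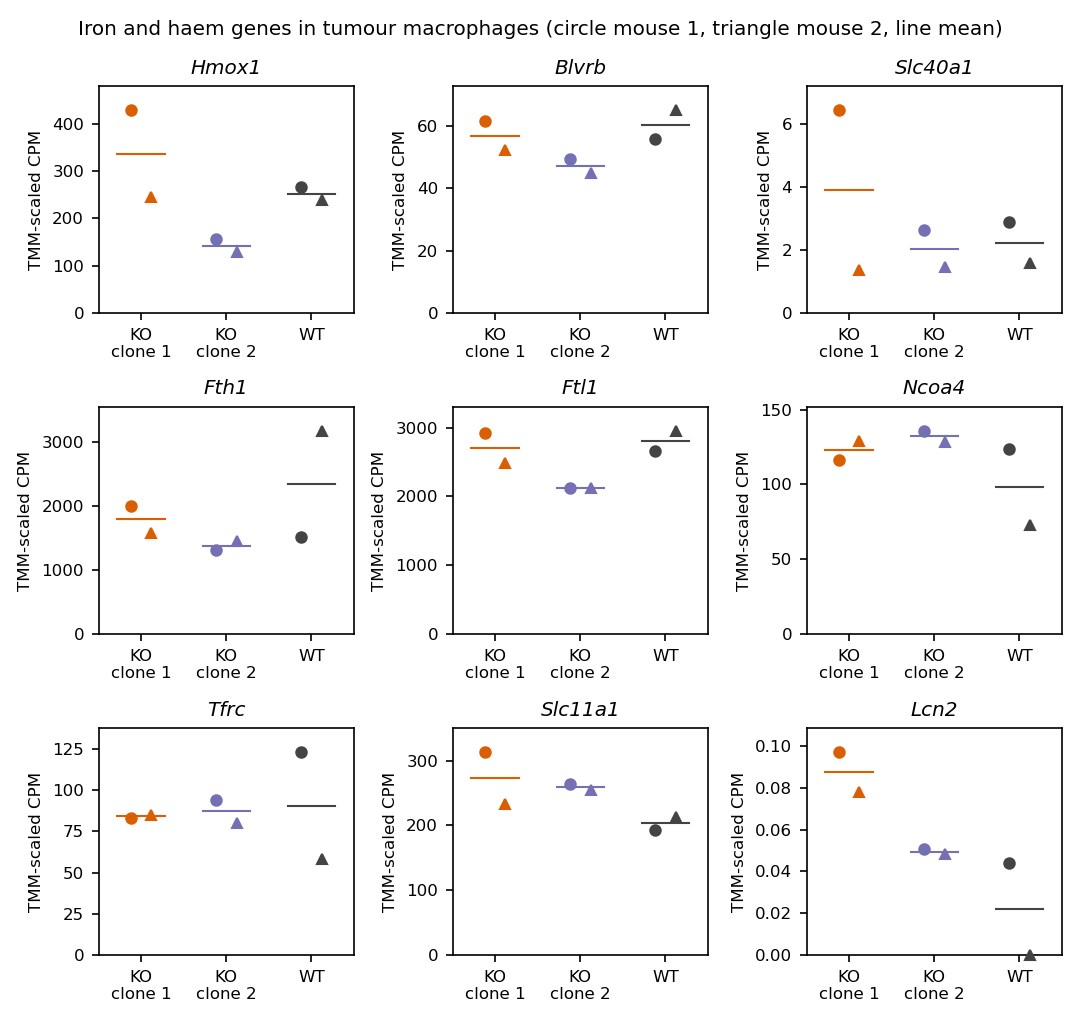
Level of each of the 9 genes in TMM-scaled CPM (linear axis from 0) in macrophages from KO clone 1, KO clone 2 and WT tumours. Each point is a library, with circles for mouse 1, triangles for mouse 2 and a line at the group mean. Hmox1 is lowest in both clone 2 libraries (155 and 129 CPM), and the WT libraries lie far apart for Fth1 and Tfrc.

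Hmox1, the inducible haem oxygenase (chromosome 8, 75093621 to 75100589 on GRCm38, plus strand), differed most between the KO clones. It stood at 428 and 245 CPM in the clone 1 libraries, at 155 and 129 CPM in the clone 2 libraries and at 266 and 238 CPM in the WT libraries. Both clone 2 libraries lay below all 4 others, while clone 1 mouse 2 lay between the WT libraries. Over both clones Hmox1 averaged 239 ± 135 CPM in KO (SD, n = 4) and 252 ± 19.7 CPM in WT (SD, n = 2). Blvrb, a biliverdin reductase (chromosome 7, 27447978 to 27466144), had a narrower range. It stood at 61.5 and 52.2 CPM in clone 1, 49.5 and 44.9 CPM in clone 2 and 55.6 and 64.9 CPM in WT libraries, with clone 2 again lowest.

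Slc40a1, or ferroportin, the iron exporter (chromosome 1, 45908068 to 45926523), was scarce. It had 265 and 52 reads in clone 1, 103 and 61 in clone 2 and 131 and 23 in WT libraries. Its level was 6.42 and 1.35 CPM in clone 1, 2.62 and 1.47 CPM in clone 2 and 2.88 and 1.58 CPM in WT libraries. The ranges of the 3 groups overlapped, and clone 1 mouse 1 was the highest.

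Fth1 (chromosome 19, 9980598 to 9985098) stood at 2003 and 1585 CPM in clone 1, 1310.0 and 1456 CPM in clone 2 and 1519 and 3173 CPM in WT libraries. The high value of WT mouse 2 set the WT mean, and WT mouse 1 lay among the KO libraries. Ftl1 (chromosome 7, 45457944 to 45459884) stood at 2917 and 2480.0 CPM in clone 1, 2128 and 2116 CPM in clone 2 and 2663 and 2946 CPM in WT libraries. Clone 2 was below the other 4 libraries. Ncoa4, the receptor that carries ferritin to the lysosome for iron release (chromosome 14, 32159865 to 32179855), stood at 117 and 129 CPM in clone 1, 135 and 129 CPM in clone 2 and 124 and 73.1 CPM in WT libraries. WT mouse 2 alone was low.

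Tfrc, the transferrin receptor (chromosome 16, 32608920 to 32632794), was even in KO libraries, at 83.4 and 85.0 CPM in clone 1 and 94.1 and 80.2 CPM in clone 2. The WT libraries lay on both sides of these, at 123 and 58.1 CPM. Cycling cells are known to take up more transferrin, and the 8 cycling markers had a sum between 1533 and 1836 CPM in KO libraries, against 1928 and 1307 CPM in WT. In Tfrc and in this sum, WT mouse 1 was highest and WT mouse 2 lowest, as WT mouse 2 was for 39% of all genes tested. Mcm5 went the other way, at 211 CPM in WT mouse 2 and 140 CPM in WT mouse 1. Mcm2 (131 CPM) and Birc5 (62.9 CPM) were not lowest in WT mouse 2 either. The part of cycling cells in the Tfrc levels was not tested.

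Slc11a1 (NRAMP1, chromosome 1, 74375195 to 74386062) moves metal ions out of the phagosome. It stood at 313 and 233 CPM in clone 1, 264 and 255 CPM in clone 2 and 194 and 213 CPM in WT libraries. All 4 KO libraries were above both WT libraries, with averages of 266 ± 34.0 CPM in KO (SD, n = 4) and 203 ± 13.3 CPM in WT (SD, n = 2). The C57BL/6 strain is known for an Slc11a1 allele whose protein does not function, which the RNA level does not show.

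Lcn2, which binds iron-loaded siderophores and is a product of neutrophil granules (chromosome 2, 32384633 to 32388252), was close to absent. It had 4 and 3 reads in clone 1, 2 and 2 in clone 2 and 2 and 0 in WT libraries. The 0 reads in WT mouse 2 allow up to 0.206 CPM, taking 3 reads as the limit and counting error alone. The neutrophil genes S100a8, S100a9, Ly6g and Retnlg were each under 1 CPM in every library. The 12 neutrophil markers had a sum between 172 and 327 CPM in KO libraries, against 99.2 and 109 CPM in WT, mostly Mmp9 and Csf3r, while Cxcr2 went the other way, at 6.08 to 8.87 CPM in KO libraries, against 11.9 and 12.9 CPM in WT. Lcn2 did not pass the filter on low counts, so 8 of the 9 genes were tested.

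Set against WT over both clones, no member passed the test. With edgeR's quasi-likelihood test 0 of the 8 tested members passed an adjusted p of 0.05, where 0.135% of 15560 genes did, and 0 had an unadjusted p under 0.05, as 13.6% of all genes did. DESeq2 also called 0. The median log2 fold change of the 8 was -0.08, with 3 positive, where 50.2% of all genes were, beside 0.00 over all genes tested. Slc11a1 was the single member whose KO and WT libraries did not overlap, 1 of 8 where 23.6% of all genes did not, 12.9% with KO higher. For Slc11a1 the log2 fold change and its SE were 0.39 ± 0.18 (adjusted p = 0.388). Ncoa4 stood at 0.37 ± 0.23, Slc40a1 at 0.38 ± 0.68 and Hmox1 at -0.07 ± 0.45. Fth1 stood at -0.56 ± 0.32, Ftl1 at -0.22 ± 0.22, Blvrb at -0.21 ± 0.18 and Tfrc at -0.08 ± 0.28. The adjusted p of the 8 ran from 0.388 to 0.938.

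The call of 3 members depended on which WT library was kept. Without WT mouse 2, Fth1 was at 0.04 ± 0.25 (adjusted p = 0.990), and without WT mouse 1 it was at -0.98 ± 0.24 (adjusted p = 0.0163). Ncoa4 was at 0.02 ± 0.14 without WT mouse 2 and at 0.82 ± 0.15 without WT mouse 1 (adjusted p = 0.992 and 0.00611). Tfrc changed direction, at -0.55 ± 0.13 without WT mouse 2 and 0.57 ± 0.15 without WT mouse 1 (adjusted p = 0.195 and 0.0225). Among members that passed in neither fit, Slc40a1 was at 0.02 ± 0.81 when WT mouse 2 was left out and at 0.92 ± 0.96 when WT mouse 1 was. Hmox1 changed direction, at -0.18 ± 0.57 when WT mouse 2 was left out and at 0.02 ± 0.58 when WT mouse 1 was. These fits take the lone WT library to vary like the KO libraries. Without WT mouse 1, 37.5% of all genes were called, and without WT mouse 2 0.174%, so the 3 calls made against WT mouse 2 alone are near the share of all genes.

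**Figure D2:**
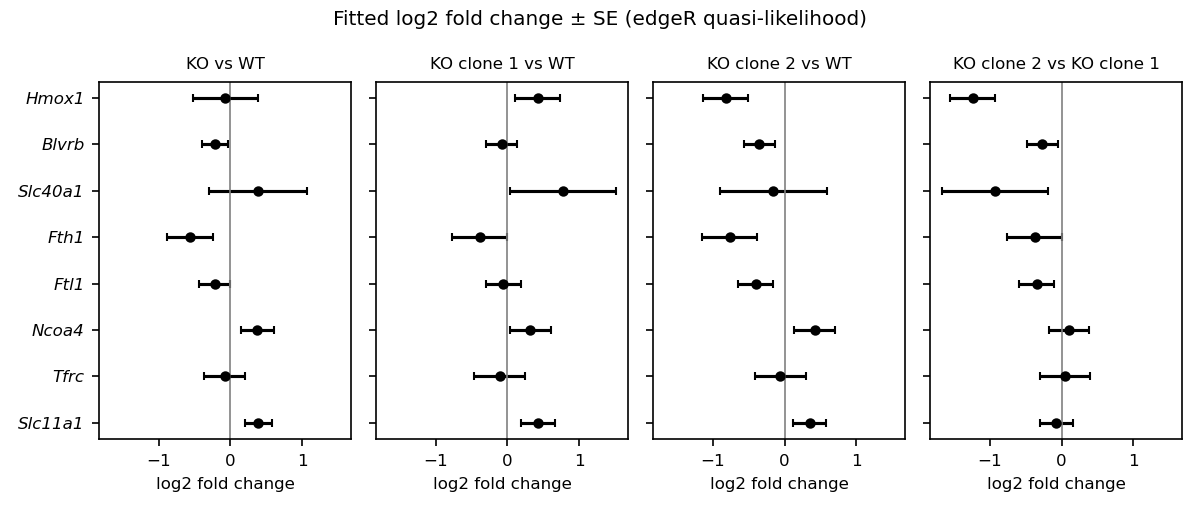
Fitted log2 fold changes with standard errors of the 8 tested genes in 4 comparisons, with 0 as a grey line. Hmox1 lies at -0.82 in KO clone 2 against WT and at -1.24 in KO clone 2 against KO clone 1, and no gene passed the adjusted threshold.

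Each clone was also compared with WT, and both comparisons share the WT libraries. In clone 1 the Hmox1 log2 fold change was 0.42 ± 0.31 and in clone 2 it was -0.82 ± 0.31, with adjusted p of 0.726 and 0.426. The clone 2 value had an unadjusted p of 0.0344. For Fth1 the values were -0.39 ± 0.38 for clone 1 and -0.76 ± 0.38 for clone 2, and for Ftl1 -0.06 ± 0.24 for clone 1 and -0.40 ± 0.24 for clone 2. Slc11a1 was at 0.42 ± 0.23 in clone 1 and 0.35 ± 0.23 in clone 2. By edgeR, 0 of 8 members passed in either clone, where 0.00643% of all genes did in each. DESeq2 called 0 as well. At an unadjusted p under 0.05 the counts were 0 of 8 in clone 1 and 1 of 8 in clone 2, against 7.1% and 11.3% of all genes (6.17% lower in clone 2). Libraries did not overlap with WT for 1 of 8 members in clone 1 and 6 of 8 in clone 2, where 32.5% and 51.9% of all genes did not. In clone 1 this was Slc11a1, above WT, as were 17.4% of all genes. In clone 2 these were Slc11a1 and Ncoa4 above WT, as were 26.5% of all genes, and Hmox1, Blvrb, Fth1 and Ftl1 below it, as were 25.3%. The members' median was 0.13 in clone 1, with 4 of 8 positive where 51.2% of all genes were, and -0.25 in clone 2, with 6 of 8 negative where 51.7% were. Leaving out WT mouse 1 gave 3 calls in each clone (Fth1, Ncoa4 and Tfrc), with 34.5% and 40.2% of all genes called, and leaving out WT mouse 2 gave 0, with 0.361% and 1.16% of all genes called.

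The clones were also set against each other, with the WT libraries entering only the shared spread. Hmox1 was lower in clone 2 than in clone 1, with a log2 fold change of -1.24 ± 0.31 and an unadjusted p of 0.00604, but it did not pass over all genes tested (adjusted p = 0.717). Of the 15560 genes, 0% passed, and 3.23% had an unadjusted p under 0.05 (1.91% lower), among which Hmox1 ranked 131 by p. DESeq2 gave Hmox1 an adjusted p of 0.0720. Clone 1 mouse 1 carried part of the value, which was -0.78 ± 0.27 without that library. The other members were smaller. Ftl1 stood at -0.35 ± 0.24, Fth1 at -0.38 ± 0.38, Blvrb at -0.27 ± 0.21 and Slc40a1 at -0.93 ± 0.74, while Ncoa4 (0.10 ± 0.28), Tfrc (0.05 ± 0.35) and Slc11a1 (-0.07 ± 0.23) were near 0. The median of the 8 was -0.31, with 6 negative, where 53% of all genes were, beside -0.02 over all genes. Libraries of the clones did not overlap for 4 of 8 members, all lower in clone 2, where 44.5% of all genes did not overlap in either direction and 22.7% were lower. The monocyte markers had sums of 1234 and 1248 CPM in clone 2 and 972 and 1134 CPM in clone 1. That difference was Ccr2's, at 594 and 717 CPM in clone 2 and 280 and 453 CPM in clone 1. Hp was also higher in both clone 2 libraries. Plac8 and Vcan went the other way, with Vcan at 196 and 212 CPM in clone 2 and 244 and 250 CPM in clone 1. The other monocyte markers overlapped between the clones. The part of such cells in Hmox1 was not tested.

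Hmox1 is a classic target of NRF2, and the other targets on that list were read in the same contrast. This reading was added after the values were seen, in the contrast where Hmox1 differed most. Its counts are therefore a description, and the activity of NRF2 was not tested. The list held Nqo1 (a quinone reductase), Gclm and Gclc (glutathione synthesis), Txnrd1, Srxn1, Prdx1 and Gsr (thiol redox enzymes), Slc7a11 (the cystine carrier), Sqstm1, Akr1b8 and Hmox1. All 11 had a negative value in clone 2 against clone 1, where 53% of all genes did, with a median of -0.37 beside -0.02. Without Hmox1 it was 10 of 10 and a median of -0.36. None of the 11 passed by edgeR or by DESeq2, and Hmox1 alone had an unadjusted p under 0.05. In 8 of the 11 both clone 2 libraries lay below both clone 1 libraries, as in 22.7% of all genes, where 44.5% did not overlap in either direction. Srxn1 stood at 49.0 and 47.6 CPM in clone 2 and 71.9 and 61.1 CPM in clone 1 (log2 fold change -0.46 ± 0.20). Slc7a11 stood at 32.5 and 31.2 CPM in clone 2 and 47.0 and 43.7 CPM in clone 1 (-0.51 ± 0.29). Without clone 1 mouse 1 the count was 8 of 11 and the median -0.26, a choice of library made after the values were seen. Against WT over both clones the list was mixed, with 7 positive and 4 negative and a median of 0.12. In clone 1 against WT, 10 were positive and 1 negative (median 0.29), where 51.2% of all genes were positive. In clone 2 against WT, 4 were positive and 7 negative (median -0.10), where 51.7% of all genes were negative.

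**Figure D3:**
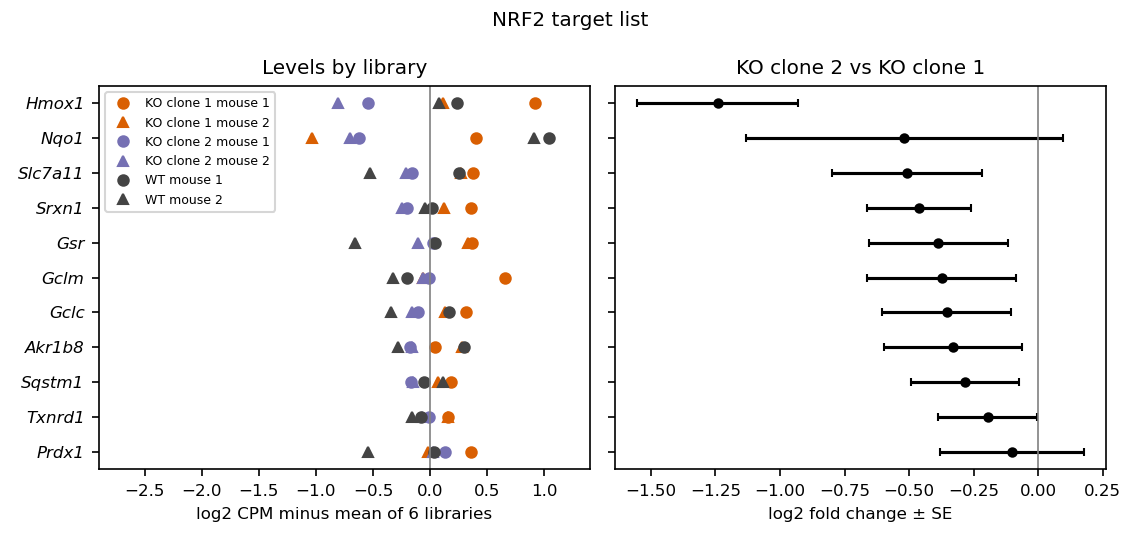
The 11 NRF2 targets. On the left, log2 CPM of each library minus the gene's mean over the 6 libraries, in the colours and shapes of the legend. On the right, log2 fold change of KO clone 2 against KO clone 1 with standard error, which is below 0 for all 11 and largest for Hmox1 (-1.24).

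Transcripts of the regulators were compared as well. Bach1, the haem-sensing repressor of Hmox1, stood at 172 and 172 CPM in clone 1, 211 and 207 CPM in clone 2 and 141 and 134 CPM in WT libraries. All 4 KO libraries were above WT, with a log2 fold change of 0.47 ± 0.18 (adjusted p = 0.337). Nfe2l2, which encodes NRF2, stood at 223 and 217 CPM in clone 1, 252 and 265 CPM in clone 2 and 200.1 and 131 CPM in WT libraries (0.53 ± 0.22, adjusted p = 0.359). Keap1, the NRF2 inhibitor, was at 0.00 ± 0.17. Hif1a, whose product drives Tfrc and Hmox1 under low oxygen, had the smallest p of the list, at 373 to 401 CPM in KO libraries, against 264 and 134 CPM in WT (0.97 ± 0.28). It did not pass by edgeR (adjusted p = 0.269) and did by DESeq2 (adjusted p = 0.0350). Aco1, which encodes iron regulatory protein 1, was higher in both clone 2 libraries (95.5 and 94.2 CPM) than in clone 1 (56.6 and 64.7 CPM), at 0.64 ± 0.22 with an adjusted p of 1. Its WT levels were 89.3 and 70.0 CPM. Of the 12 regulators, 0 passed by edgeR in KO against WT and 1, Hif1a, by DESeq2, where 0.135% and 3.21% of all genes did. At an unadjusted p under 0.05, 3 were higher and 1 lower, where 13.6% of all genes were either, and the median was 0.11.

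The other pathway lists held no gene that passed by edgeR in KO against WT. Over all lists, and with the members left out, 65 genes were tested. Of these 5 were higher and 5 lower at an unadjusted p under 0.05, a share near the 13.6% of all genes, and 38 were positive, where 50.2% of all genes were. By DESeq2 2 of the 65 passed (Hif1a and Hp), near the 3.21% of all genes. Hp encodes haptoglobin, which binds free haemoglobin, and was also on the monocyte marker list. It stood at 2.71 and 2.86 CPM in clone 1, 3.69 and 3.39 CPM in clone 2 and 0.747 and 0.481 CPM in WT libraries, so every KO library was above WT. The log2 fold change was 2.31 ± 0.35, with an adjusted p of 0.0638 by edgeR and 4.83e-06 by DESeq2. Among 16 genes of uptake and transport the median was 0.01. Lrp1, a receptor that also takes up haem bound to haemopexin, had the smallest p there, at 709 to 1449 CPM in KO and 1104 and 2768 CPM in WT libraries (-1.03 ± 0.42, adjusted p = 0.350). All 7 genes of iron-sulphur clusters were positive (median 0.37), with WT mouse 2 lowest in 6 of them, and Nfs1, the cysteine desulphurase, stood at 0.37 ± 0.19. Of 9 haem synthesis genes 7 were negative (median -0.10), and Ppox was below WT in all 4 KO libraries (-0.55 ± 0.18, adjusted p = 0.310). Among 7 genes of haem breakdown and scavenging, the members Hmox1 and Blvrb included, 5 were negative (median -0.07). Of 6 storage genes, the members Fth1, Ftl1 and Ncoa4 included, 4 were negative (median -0.23). The smallest p there was that of Pcbp3, a poly(C)-binding protein, at 1.09 to 1.61 CPM in KO libraries, against 0.747 and 0.619 CPM in WT (0.89 ± 0.38, adjusted p = 0.364). Pcbp1, an iron chaperone for ferritin, had 46.2 to 70.0 CPM in KO libraries, against 48.0 and 170.0 CPM in WT (adjusted p = 0.367), so its WT mean is set by WT mouse 2. The 4 tested export genes, the member Slc40a1 included, were all positive (median 0.29), with overlapping libraries.

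Clone 1 mouse 1 had the highest level of some genes of haem uptake and recycling, but not of others. It was the highest library for 3 of the 8 tested members (Hmox1, Slc40a1 and Slc11a1) and for 16 of the 65 other pathway genes (24.6%), where it was highest for 14.2% of all genes. Cd163, the receptor for haemoglobin bound to haptoglobin, stood at 31.5 CPM there, 13.3 CPM in clone 1 mouse 2, 20.3 and 3.29 CPM in clone 2 and 9.40 and 0.413 CPM in WT libraries. Slc48a1, which carries haem out of the phagolysosome, stood at 81.5 CPM there and at 48.8 to 55.3 CPM in the other 5. Among the 16 were also the NRF2 targets Gclm, Srxn1 and Gsr, so the count is not one of haem genes alone. Other haem genes were highest elsewhere, Lrp1 (2768 CPM) and Blvrb (64.9 CPM) in WT mouse 2. Hp (3.69 CPM) and Hmox2 (94.1 CPM) were highest in clone 2 mouse 1. These examples were chosen after their values were seen. The erythroid markers were low, with a sum between 6.25 and 9.81 CPM in KO libraries, against 33.0 and 7.70 CPM in WT.

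Ratios of members within a library do not depend on scaling. The Fth1 to Ftl1 read ratio was 0.687 and 0.639 in clone 1, 0.616 and 0.688 in clone 2 and 0.571 and 1.08 in WT libraries. The Tfrc to Fth1 ratio was 0.0416 and 0.0536 in clone 1, 0.0718 and 0.0551 in clone 2 and 0.0809 and 0.0183 in WT libraries. In both, the KO libraries lay between the WT libraries. On the log2 scale the difference of KO minus WT was -0.26 for Fth1 to Ftl1, 0.50 for Tfrc to Fth1 and 0.40 for Slc40a1 to Hmox1. Two-sided exact permutation tests over the 4 KO and 2 WT libraries gave p of 0.467, 0.667 and 0.600, each 0.667 after adjustment over the 3 ratios, where 0.0667 is the smallest that 15 splits allow. Without WT mouse 2 the first was 0.20 and the second -0.57, so their direction rests on that library.

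**Figure D4:**
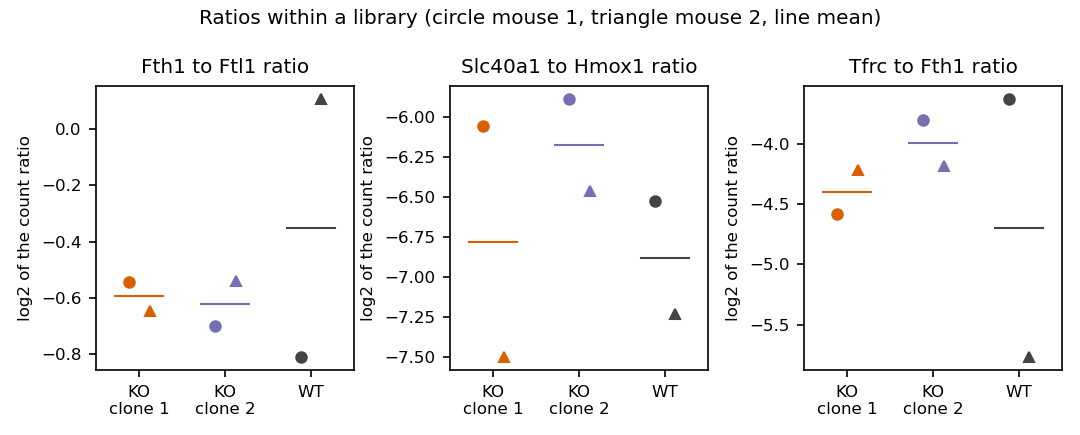
Log2 of the read ratio of 2 genes within each library, by group, with circles for mouse 1, triangles for mouse 2 and a line at the group mean. In the Fth1 to Ftl1 and Tfrc to Fth1 panels the 4 KO libraries lie between the WT libraries.

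The genes whose profile over the 6 libraries was most like that of 3 members were found by the root mean square difference of mean-centred log2 CPM among 10208 genes. For Hmox1 they were Il7r (0.14), Asb2 (0.22) and Appl2 (0.22), where the median gene was at 0.63. Il7r stood at 95.9 and 58.5 CPM in clone 1, 30.4 and 29.9 CPM in clone 2 and 57.7 and 42.6 CPM in WT libraries. For Slc40a1 they were Col1a2 (0.33), Cd36 (0.33) and Adamts2 (0.34), with the median gene at 0.73. For Tfrc they were Galnt3 (0.08), Bicd1 (0.08) and Paxbp1 (0.09), with the median gene at 0.40. With 6 libraries, close profiles are easily found among so many genes.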

How the data were processed

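The values deposited by the authors are estimated counts for each gene symbol, in whole numbers with no scaling for depth. The submitters' processing notes name Salmon 0.7.2 and mm10 and give neither a role nor an order. Per the labels' protocols, macrophages were sorted by flow cytometry and rRNA was depleted for TruSeq libraries. The sources used here do not give the sorting gate, the transcript set or the use of strand. Columns were matched to samples by title. No source says more of the mice than their numbers, so p-values measure the spread between these libraries. The libraries of a group were not copies (chi-square per degree of freedom 85.6 to 924).

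The members and gene lists were chosen with earlier results of these data known. The test was the quasi-likelihood F test of edgeR 4.0.16 in R 4.3.3, with TMM factors and the filterByExpr minimum count of 10 and total of 15. Adjustment was by Benjamini-Hochberg over the whole table tested, and 0.05 was the threshold. KO against WT was fitted with 2 genotype levels, and the clone contrasts with 3 groups sharing 1 spread. The SE is the absolute log2 fold change over the square root of F. The fits were also run on simulated data, with an outcome not reported here. Each gene had the same spread in all simulated libraries, so a library that stands apart, as WT mouse 2 does, was not covered. Alternatives were RLE factors, DESeq2 1.42.0, 2 other filters, removal of Rn45s, a replicate block, the mean of the clone effects, and leaving out each library. All members were named, and within lists up to 3 genes by smallest p, with others chosen after their values were seen. Tf, Flvcr1 and Flvcr2 were read under the older symbols Trf, Mfsd7b and Mfsd7c, and 1 list symbol (Hephl1) and 2 marker symbols had no match. Of the 21760 symbols, 20429 (93.9%) matched GENCODE M21.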

Additional observations from a re-analysis of the deposited data

How the results depend on the processing

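With WT replicate 1 left out, 3 members passed against WT, and under every other alternative run 0 passed in any comparison. Leaving out 1 library each moved the number of members called between 0 and 3 in the 3 comparisons with WT. It moved the genes called over all genes tested from 21 to between 1 and 6020 in KO against WT, from 1 to between 0 and 5535 in clone 1 and between 0 and 6445 in clone 2, and from 0 to between 0 and 87 between the clones. DESeq2 called 499, 268, 462 and 116 genes in these comparisons, and edgeR with every counted gene kept called 111, 123, 229 and 53. The mean of the clone effects gave 1 call in KO against WT. For clone 2 against WT, RLE factors gave 9 and removal of Rn45s 8. The filter of 5 CPM in 2 libraries gave 0 in either clone against WT, and so did the replicate block.

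The members' median log2 fold change ran over the left-out libraries from -0.31 to 0.18 in KO against WT, -0.13 to 0.44 in clone 1, -0.41 to -0.073 in clone 2 and -0.42 to -0.056 between the clones. With the 5 CPM filter, which drops Slc40a1, it was -0.10 in clone 1 and -0.41 in clone 2.

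Directions turned as follows when 1 library was left out, with the lone library of that group taken to vary like the others. In KO against WT, Hmox1 ran from -0.51 to 0.13, Slc40a1 from -0.32 to 0.92, Fth1 from -0.98 to 0.039 and Tfrc from -0.55 to 0.57. In clone 1 the ranges were -0.033 to 0.77 for Hmox1, -0.74 to 1.502 for Slc40a1, -0.81 to 0.21 for Fth1, -0.17 to 0.061 for Ftl1, -0.57 to 0.55 for Tfrc, -0.038 to 0.76 for Ncoa4 and -0.20 to 0.036 for Blvrb. In clone 2, Slc40a1 ran from -0.63 to 0.38 and Tfrc from -0.52 to 0.60. Between the clones, Slc40a1 ran from -1.65 to 0.59, Tfrc from -0.060 to 0.16 and Slc11a1 from -0.27 to 0.16. The log2 ratio difference ran from -0.71 to 0.20 for Fth1 to Ftl1 and from -0.57 to 1.57 for Tfrc to Fth1. The cause of these changes was not tested. Slc11a1 against WT and Hmox1 in clone 2 kept their direction under every alternative run. So did Ftl1, Blvrb and Ncoa4 in KO against WT and in clone 2, and Fth1 in clone 2. Hmox1 between the clones ran from -1.58 to -0.78, and Fth1, Ftl1, Blvrb and Ncoa4 also kept their direction there.

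The mouse numbers are shared between groups, but no label ties the mice. With the replicate block Tfrc in clone 2 against WT was 0.0036, against -0.06 without it, and 15 genes passed in KO against WT. Differences between mouse 1 and mouse 2 correlated across 15560 genes at -0.25 for WT and clone 1, 0.05 for WT and clone 2 and 0.22 for the clones, so the numbers were not taken as pairs. Lcn2, with at most 4 reads a library, is limited by depth.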
